A study of Neurospora crassa with 20 samples.

Results

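Short H3K9me3 patches are short stretches of histone H3 lysine 9 trimethylation (H3K9me3) that were called as peaks of under 1 kb in the mycelium of the filamentous fungus Neurospora crassa. They were chosen by length alone. All peaks under 1000 bp in any of 4 deposited H3K9me3 peak lists were merged where they shared at least 1 bp, and a merged patch was dropped if it touched a peak of 1000 bp or more in the wild type (WT) list from dark-grown cultures. The 4 lists held 2998 peaks, of which 883 were under 1 kb. These gave 655 merged patches, of which 94 were dropped and 561 kept. The kept patches contain 776 short peaks, span 206 to 1586 bp with a median of 605 bp, and cover 342.3 kb, or 0.846% of the 40.5 Mb of the 7 chromosomes. Merging carried 18 of them to 1 kb or more.

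H3K9me3 was measured by chromatin immunoprecipitation followed by sequencing (ChIP-seq) in WT and in Δkmt2/Δset-1, a deletion strain without the H3K4 methyltransferase. H3K4me3, the mark that this enzyme makes, was measured in WT and in Δkmt1/Δdim-5, a deletion strain without the H3K9 methyltransferase. Cultures were kept in the dark for 24 h (DD) or were given 30 min of light after that (LP30), with 2 replicates for each strain, growth condition and mark, and each list pools its replicates. The control of all 4 H3K9me3 lists was the same H3K9me3 ChIP from Δkmt1/Δdim-5 in DD, and that of the H3K4me3 lists was the H3K4me3 ChIP from Δkmt2/Δset-1 in DD, so every strain was read against cells that lack the mark. Since the lists pool replicates and share controls, no spread between replicates and no test between conditions could be had, and all values below are descriptions.

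In Neurospora, H3K9me3 is laid down by the methyltransferase DIM-5 and bound by heterochromatin protein HP1, which recruits DNA methylation. Its best known sites are long domains over A:T-rich relics of repeat-induced point mutation, the fungal process that mutates duplicated DNA, at centromeres, near chromosome ends and in dispersed blocks. H3K4me3 marks the starts of transcribed genes, so the 2 marks are generally read as opposite states of chromatin.

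The short peaks were weakly enriched. A peak is described by its mean fold enrichment, the ratio of ChIP to control averaged over the peak. In WT DD the 197 short peaks had a median fold of 1.12 and ranged from 1.07 to 1.80, the 248 peaks of 1 to 5 kb had a median of 1.15, and the 246 peaks of 5 kb or more had a median of 2.11. The short peaks that lay in patches had a median fold of 1.12 in WT LP30 (138 peaks), 1.11 in Δkmt2/Δset-1 DD (236 peaks) and 1.11 in Δkmt2/Δset-1 LP30 (205 peaks). Most short peaks thus sat in a narrow band a little above the control level, a band that longer peaks also occupied. Only 6 patches held a short peak with a fold of 1.5 or more. A short peak with a q-value under 0.01 was present in 46 of the 561 patches (8.20%, 95% Wilson interval 6.20 to 10.8%), where 38.1% of all H3K9me3 peaks merged over the 4 lists reached that level. By list, short peaks in patches reached it in 9.64% of cases in WT DD (48.8% of all its peaks), 13.8% in WT LP30 (48.9%), 9.75% in Δkmt2/Δset-1 DD (42.3%) and 7.32% in Δkmt2/Δset-1 LP30 (42.4%). The intervals here and below cover counting error only and treat patches as independent.

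**Figure D1:**
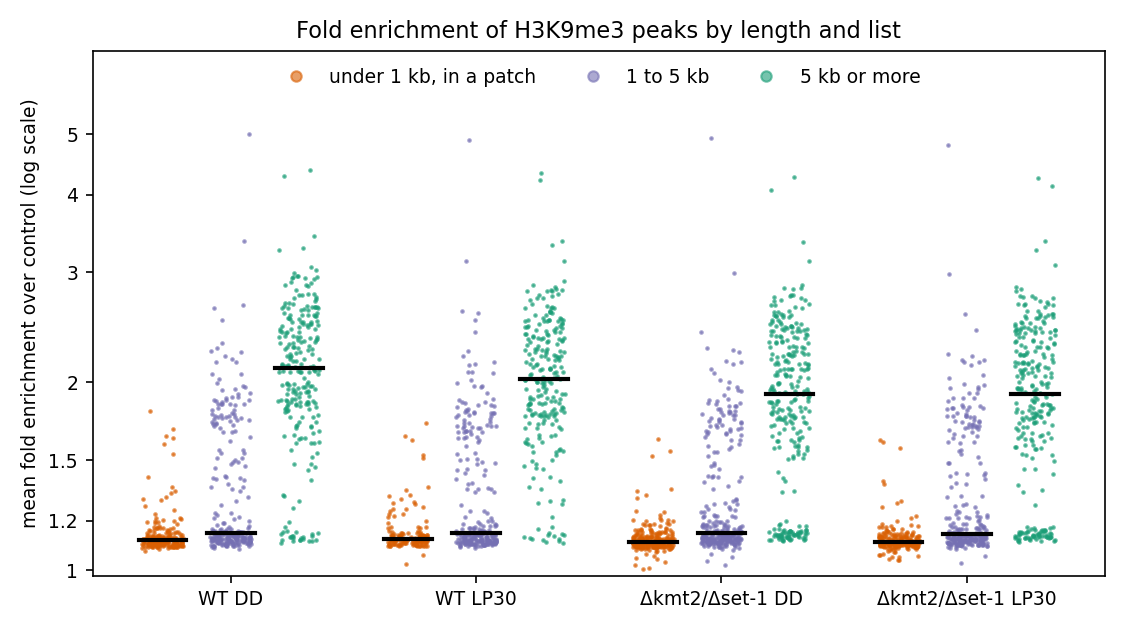
Mean fold enrichment over the control (y axis, log scale) of each H3K9me3 peak in the 4 lists (x axis), split by peak length, with short peaks shown only where they lie in a patch. Each point is 1 peak and each black line a median. The medians of the short peaks lie between 1.11 and 1.12, those of peaks of 5 kb or more between 1.91 and 2.11.

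The length limit did not fall on a visible break in the data. In WT DD the 10 peaks within 50 bp below the limit had a median fold of 1.12 (1.10 to 1.16), and the 10 peaks within 50 bp above it had a median of 1.13 (1.09 to 1.24). The other lists held 5 to 11 peaks on each side.

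Low q-values and high folds did not always come together. Of the short peaks in patches with a q-value under 0.01, the fold was under 1.1 in 1 of 19 in WT DD, 2 of 19 in WT LP30, 10 of 23 in Δkmt2/Δset-1 DD and 5 of 15 in Δkmt2/Δset-1 LP30. These 18 peaks lay in 18 patches, 13 of them present in 1 list. The plainest case overlapped the rRNA gene NCU15664 on chromosome II (1464889 to 1465564 in the NC12 build), where the Δkmt2/Δset-1 DD peak had a fold of 1.01 and a −log10 q of 19.3. Among peaks of 1 to 5 kb the same combination was found 0, 0, 4 and 2 times in the 4 lists in that order, and it was not found among peaks of 5 kb or more. Without the patches that hold such a peak, 28 patches had a q-value under 0.01, of which 16 were in lists of both strains, 7 in WT lists only and 5 in Δkmt2/Δset-1 lists only.

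To describe how often a patch recurred, its presence in each list was recorded, where a peak of any length over at least 1 bp counted as present. Of the 561 patches, 242 (43.1%) were in 1 list, 173 (30.8%) in 2 lists, 80 (14.3%) in 3 lists and 66 (11.8%) in all 4. The share in 2 or more lists was thus 56.9%, against 71.5% of all merged H3K9me3 peaks, and the share in all 4 lists was 11.8% against 44.2%. Since the rule took short peaks from any list, these shares describe the patches and are no test of them, and a shared control can put the same peak into several lists. The median highest short-peak fold was 1.10 for patches in 1 list, 1.12 for 2 lists, 1.11 for 3 lists and 1.13 for 4 lists. For patches in more lists this maximum is taken over more values, so it does not show that they were stronger. Median length was 485.5 bp for patches in 1 list and 794 bp for those in all 4. Merging lengthens a patch, and a longer patch can meet more lists at 1 bp, so this difference is partly built in.

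The patches were unevenly divided between strains. Δkmt2/Δset-1 lists alone held 294 patches (52.4%, against 35.8% of all merged H3K9me3 peaks), lists of both strains held 170 (30.3%, against 52.1%) and WT lists alone held 97 (17.3%, against 12%). The commonest combination was both Δkmt2/Δset-1 lists and no WT list, with 121 patches (21.6%), against 15.1% of all merged H3K9me3 peaks. Both WT lists and no Δkmt2/Δset-1 list held 28 patches (4.99%), against 4.32% of all merged peaks. The rule bears on this division, because it dropped patches on long WT DD peaks but kept patches on long Δkmt2/Δset-1 peaks. When presence was counted by peaks under 1 kb alone, an alternative chosen after seeing the data, 55 patches were in both Δkmt2/Δset-1 lists only and 51 in both WT lists only. With peaks of a q-value under 0.01 alone the order of these counts turned, with 1 patch in both Δkmt2/Δset-1 lists only and 7 in both WT lists only, while 22 were in Δkmt2/Δset-1 lists only, 15 in WT lists only and 10 in lists of both strains.

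**Figure D2:**
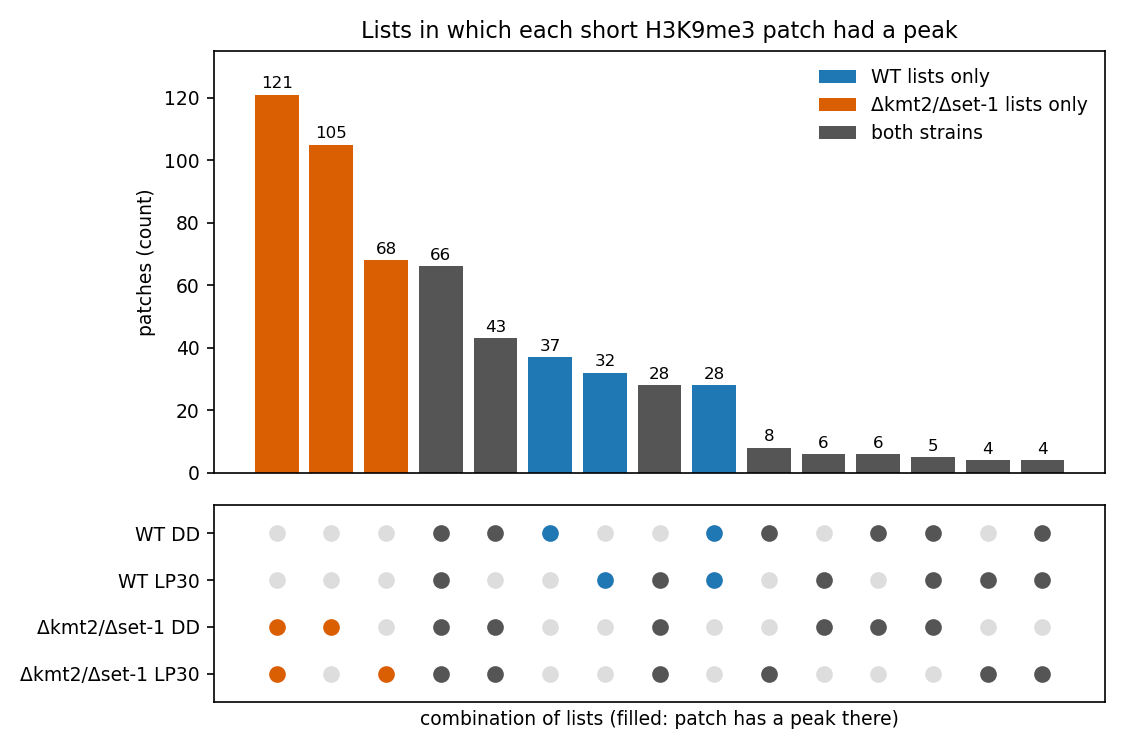
Number of short patches (y axis, count) with an H3K9me3 peak of any length in each combination of the 4 lists (x axis, filled dots mark the lists). The tallest bar is the 121 patches of both Δkmt2/Δset-1 lists, 66 patches are in all 4 lists, and 28 are in both WT lists only.

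Short WT peaks overlapped a longer peak of Δkmt2/Δset-1 less often than WT peaks as a whole did. This was asked of all short peaks of a list before any patch was dropped. Of the 197 short peaks of WT DD, 88 (44.7%) overlapped a peak of 1 kb or more in Δkmt2/Δset-1 DD, where 78.6% of all WT DD peaks did so, and 77 (39.1%) overlapped none, where 14.6% of all WT DD peaks overlapped none. In the opposite direction, 18 of the 254 short peaks of Δkmt2/Δset-1 DD (7.09%) overlapped a WT DD peak of 1 kb or more, where 51.6% of all peaks of that list did so, and 204 (80.3%) overlapped none, against 39.5%. Short peaks of WT thus met a longer Δkmt2/Δset-1 peak more often than short peaks of Δkmt2/Δset-1 met a longer WT peak. The shares for all peaks were unequal in the same direction (78.6% and 51.6%).

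The LP30 lists gave nearly the same shares. In LP30, 98 of 210 short WT peaks (46.7%, background 78.7%) were under a Δkmt2/Δset-1 peak of 1 kb or more, and 82 (39.0%, background 15%) met none. Of the 222 short Δkmt2/Δset-1 LP30 peaks, 16 (7.21%, background 52.8%) were under a WT LP30 peak of 1 kb or more, and 176 (79.3%, background 37.4%) met none. The DD and LP30 lists come from different ChIP libraries but share the control.

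Among kept patches alone, the Δkmt2/Δset-1 peaks that overlapped short WT patches were of moderate size. In DD, 65 such peaks of 1 kb or more had a median length of 3335 bp (1041 to 74867 bp). Of these, 17 lay over 2 or more separate short WT patches, and 24 also overlapped a WT DD peak of 1 kb or more. In LP30 there were 44 such peaks with a median length of 3409 bp, and 2 of them lay over 2 or more patches. The drop rule used WT DD peaks and kept all 197 short WT DD peaks but 138 of the 210 short WT LP30 peaks. The DD and LP30 counts are therefore not a comparison of light. Of the 170 patches in lists of both strains, 125 (73.5%) were under a Δkmt2/Δset-1 peak of 1 kb or more in at least 1 growth condition and 88 (51.8%) in both. Of all WT peaks, 78.6% in DD and 78.7% in LP30 overlapped such a peak in the same growth condition. This class requires a Δkmt2/Δset-1 peak, and the rule kept patches on long Δkmt2/Δset-1 peaks.

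Light exposure was compared within each strain in the same way. Of the short WT DD peaks, 94 of 197 (47.7%, background 16.6%) had no overlapping peak in WT LP30, and of the short WT LP30 peaks, 64 of 210 (30.5%, background 10.9%) had none in WT DD. In Δkmt2/Δset-1 these figures were 118 of 254 from DD (46.5%, background 17.8%) and 83 of 222 from LP30 (37.4%, background 12.8%). Between the growth conditions of 1 strain, then, 30.5 to 47.7% of short peaks were not called a second time. For peaks of 1 to 5 kb the same share was 4.76 to 9.83%. With pooled lists, a change with light and a peak that fell just short of the calling threshold cannot be told apart.

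A small set of 12 patches was short in all 4 lists. Their median highest fold was 1.34, against 1.11 for all 561 patches. In some list 9 of the 12 had a q-value under 0.01, against 8.20% of all patches. The best of 4 short peaks is taken here, where 393 of the 561 patches were made of 1. These values therefore do not show that the 12 were stronger. The 4 starts and 4 ends of a patch differed by a median of 113.5 bp and 95 bp. None lay within 10 kb of a long domain, where 11.5% of all 605-bp windows off WT DD peaks of 1 kb or more did. Within 1 kb of a WT H3K4me3 peak were 9 of the 12, against 46.8% of those windows. In 9 of them both WT folds were above both Δkmt2/Δset-1 folds, and in 1 the order was the opposite. Peaks of 5 kb or more had the same order of medians, 2.11 (DD) and 2.03 (LP30) in WT and 1.91 in both Δkmt2/Δset-1 lists. Some of the 9 differed little, as at NCU12067, with 1.104 and 1.106 in WT and 1.098 in both Δkmt2/Δset-1 lists. Fold values of different lists were scaled separately, so the order of folds describes the deposited values and was not tested.

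The strongest patch of all was on chromosome VI (2031871 to 2032665), in the space between the genes NCU03884, 228 bp away, and NCU03885, 1813 bp away. Its fold was 1.80 in WT DD, 1.72 in WT LP30, 1.20 in Δkmt2/Δset-1 DD and 1.17 in Δkmt2/Δset-1 LP30. The peak was also shorter in the deletion strain, with 315 and 395 bp against 794 and 782 bp in WT. Both WT values lie well above both Δkmt2/Δset-1 values here.

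Other strong patches varied in how far the lists differed. A patch on chromosome VII (1628921 to 1629671), 82 bp from NCU06150, had folds of 1.63, 1.62, 1.55 and 1.60 in WT DD, WT LP30, Δkmt2/Δset-1 DD and Δkmt2/Δset-1 LP30, and it lay 24 bp from a WT H3K4me3 peak. On chromosome V (2832754 to 2833362), a patch between NCU01073 and NCU01072 had short peaks of 1.64 in WT DD, 1.53 in Δkmt2/Δset-1 DD and 1.57 in Δkmt2/Δset-1 LP30, and its WT LP30 peak reached 1299 bp with a fold of 1.61. At the boundary of the genes NCU00951 and NCU00950 on chromosome I (6600333 to 6601045) the folds in the same order were 1.59, 1.51, 1.35 and 1.37, so both WT values were above both Δkmt2/Δset-1 values. The patch over 1 edge of NCU16376 on chromosome I (3579461 to 3580312), 663 bp from pcb-6, had folds of 1.41, 1.36, 1.34 and 1.39.

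The extreme left end of chromosome VII (175 to 1160) was another patch short in all 4 lists, over 1 edge of NCU09306 and near cao-2, a carotenoid oxygenase gene. Its folds were 1.68, 1.64, 1.62 and 1.61, which differ little between strains. The first peaks of chromosomes I, IV and VI were of the same kind and stood just on the other side of the length limit in WT DD, with 1085, 1067 and 1280 bp and folds of 1.61, 1.54 and 1.50. The limit therefore separated alike chromosome ends. In all, 8 of the 561 patches lay within 20 kb of a chromosome end, for which no share of windows was computed.

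One of the 12 patches lay over the dim-5 gene itself, NCU04402, on chromosome IV (3481144 to 3482098, gene 3480589 to 3482273). It was singled out after its values were seen. Its folds were 1.20 in WT DD, 1.24 in WT LP30, 1.19 in Δkmt2/Δset-1 DD and 1.16 in Δkmt2/Δset-1 LP30. This is the gene deleted in the strain that gave the control of all 4 lists, so enrichment at this locus and missing control DNA cannot be told apart. H3K4me3 peaks covered the patch in WT DD (fold 1.61) and WT LP30 (1.50), and none was called there in Δkmt1/Δdim-5. Since this gene is deleted in Δkmt1/Δdim-5, absence of the mark and missing DNA cannot be told apart there. The set-1 gene, deleted in the other strain, had its nearest patch 8.89 kb away.

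Patches in both WT lists and in no Δkmt2/Δset-1 list were mostly weak, with a median highest fold of 1.14 over 28 patches, and 7 of the 28 had a q-value under 0.01. The strongest lay between NCU03747, 231 bp away, and NCU03748, 250 bp away, on chromosome V (2287642 to 2288154), with folds of 1.54 in WT DD and 1.53 in WT LP30. A patch 1449 bp from NCU05188 on chromosome IV (5814520 to 5815293) had folds of 1.31 and 1.28, and one 1316 bp from pef-1 on chromosome I (3378432 to 3378846) had 1.30 in both lists. The 2 WT values lie close together at each of these loci, but both lists share 1 control. These patches were chosen for a peak in both WT lists and none in either Δkmt2/Δset-1 list. Their division between strains is therefore built in and is no test of a difference. Patches near NCU04170 on chromosome V, over NCU02049 on chromosome I and between NCU04604 and NCU04603 on chromosome V followed, with folds of 1.22 to 1.27.

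The 121 patches in both Δkmt2/Δset-1 lists and in no WT list had a median highest fold of 1.12, and 4 of them had a q-value under 0.01. The strongest, 338 bp from NCU04059 on chromosome VI (2606274 to 2607015), had folds of 1.24 in DD and 1.21 in LP30. A patch 524 bp from NCU03719 on chromosome V (2197095 to 2197910) was short in LP30, with a fold of 1.22, and part of a 2800-bp peak in DD. Within cat-2, a catalase gene, a 374-bp patch on chromosome VII (3765160 to 3765533) had folds of 1.16 in DD and 1.20 in LP30. Their folds were lower than those of the leading WT patches. Patches near NCU08962 and NCU02608 and over NCU06866 followed, with short-peak folds of 1.15 to 1.19.

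Patches in a single list had a median highest fold of 1.10, taken within that list alone. The 4 strongest were a patch near NCU03721 on chromosome V in WT LP30 (fold 1.23), and patches near NCU06094 on chromosome VII (1.21), within NCU02038 on chromosome I (1.20) and within NCU16713 on chromosome III (1.20), all 3 in Δkmt2/Δset-1 DD.

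Some patches lay by genes that the study of these strains discusses. Within the gene NCU16472 on chromosome I (8719121 to 8719640), a patch was present in WT DD (fold 1.13) and WT LP30 (1.11), was called in neither Δkmt2/Δset-1 list, and was covered by H3K4me3 in Δkmt1/Δdim-5 DD (1.36) and LP30 (1.28) but not in WT. At vvd, which encodes a blue-light photoreceptor, 1 patch within the gene was in WT DD only (1.11) and another, 488 bp outside it, in Δkmt2/Δset-1 DD only (1.15). A patch 1521 bp from NCU09968 on chromosome VI was short in WT LP30 (1.20) and part of peaks of 1235 and 1236 bp in the Δkmt2/Δset-1 lists. One within NCU05133 was in Δkmt2/Δset-1 DD only, at a fold of 1.02 and a −log10 q of 6.43. It is among the 18 peaks above with a low q-value and a fold under 1.1. The circadian clock gene frq had its nearest kept patch 385.7 kb away. This distance concerns kept patches only, and other H3K9me3 peaks at frq are not described here. The study reports H3K9me3 at frq in WT and its absence in Δkmt2/Δset-1.

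At the threshold of the deposited lists, the patches had a smaller median distance to long domains than the rest of the genome. Long domains were taken as WT DD H3K9me3 peaks of 5 kb or more, and the background was every window of 605 bp, the median patch length, that did not touch a WT DD peak of 1 kb or more. The median patch lay 37.97 kb from a long domain (95% order-statistic interval 31.6 to 44.4 kb), with a range from 0.265 kb to 844.4 kb, and the median window lay 63.3 kb away. Within 5 kb of a long domain were 84 patches (15.0%), against 6.06% of windows, and within 50 kb were 323 (57.6%), against 43.1%. Beside WT DD peaks of 1 kb or more, 100 patches (17.8%) lay within 2 kb, against 4.93% of windows. The same WT DD library gave both the domains and some of the patches. With H3K9me3 peaks of a q-value under 0.01 alone the order turned, with a median of 79.7 kb for the 47 patches left (46.3 to 104.5 kb) and 65.3 kb for the windows made in the same way.

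By class, patches in lists of both strains were the nearest to long domains, with a median of 26.2 kb (16.7 to 35.8 kb, n = 170). Patches in WT lists only had a median of 41.8 kb (25.1 to 60.5 kb, n = 97) and those in Δkmt2/Δset-1 lists only 44.4 kb (36.3 to 51.8 kb, n = 294). The first interval overlaps that of WT lists only and ends just short of that of Δkmt2/Δset-1 lists only, and no test between classes was made. Within 2 kb of a WT DD peak of 1 kb or more were 27.6% of the patches of both strains, 20.6% of those in WT lists only and 11.2% of those in Δkmt2/Δset-1 lists only.

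The patches rarely met H3K4me3. Of the 561 patches, 17 (3.03%, 95% Wilson interval 1.90 to 4.80%) overlapped a WT H3K4me3 peak in either growth condition, against 27.8% of windows and 9.44% of all merged H3K9me3 peaks. With the Δkmt1/Δdim-5 lists included the number was 29 (5.17%), against 30.8% of windows, and 6 patches carried H3K4me3 in all 4 lists. The median patch lay 4.42 kb from a WT H3K4me3 peak (4.08 to 4.76 kb) and the median window 1.22 kb. Within 1 kb of one were 83 patches (14.8%), against 46.8% of windows. Patches were thus farther from WT H3K4me3 as well as less often under it than the windows. The 2 marks come from different libraries, and H3K4me3 was not used to choose the patches. The H3K4me3 control came from Δkmt2/Δset-1, whose H3K9me3 lists supplied many of the patches.

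The overlap with WT H3K4me3 differed between classes of patches in number. It was 9 of 97 patches in WT lists only (9.28%, 4.96 to 16.7%), 4 of 294 in Δkmt2/Δset-1 lists only (1.36%, 0.530 to 3.45%) and 4 of 170 in lists of both strains (2.35%, 0.919 to 5.89%). The counts are small and the difference was not tested. Of the patches with any H3K4me3, 7 (1.25% of all patches) carried it in WT and not in Δkmt1/Δdim-5. In H3K9me3 lists of WT only were 5 of these, a class with 17.3% of all patches. The 7 include the patch over the dim-5 gene, which is deleted in Δkmt1/Δdim-5. A further 12 (2.14% of all patches) carried it in Δkmt1/Δdim-5 only. Of these, 6 were in Δkmt2/Δset-1 lists only, a class with 52.4% of all patches. Of the windows, 27.8% overlapped WT H3K4me3 and 30.8% H3K4me3 of any list. Windows with H3K4me3 in Δkmt1/Δdim-5 only make up the gap between these shares. No share of windows with H3K4me3 in WT only was computed.

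**Figure D3:**
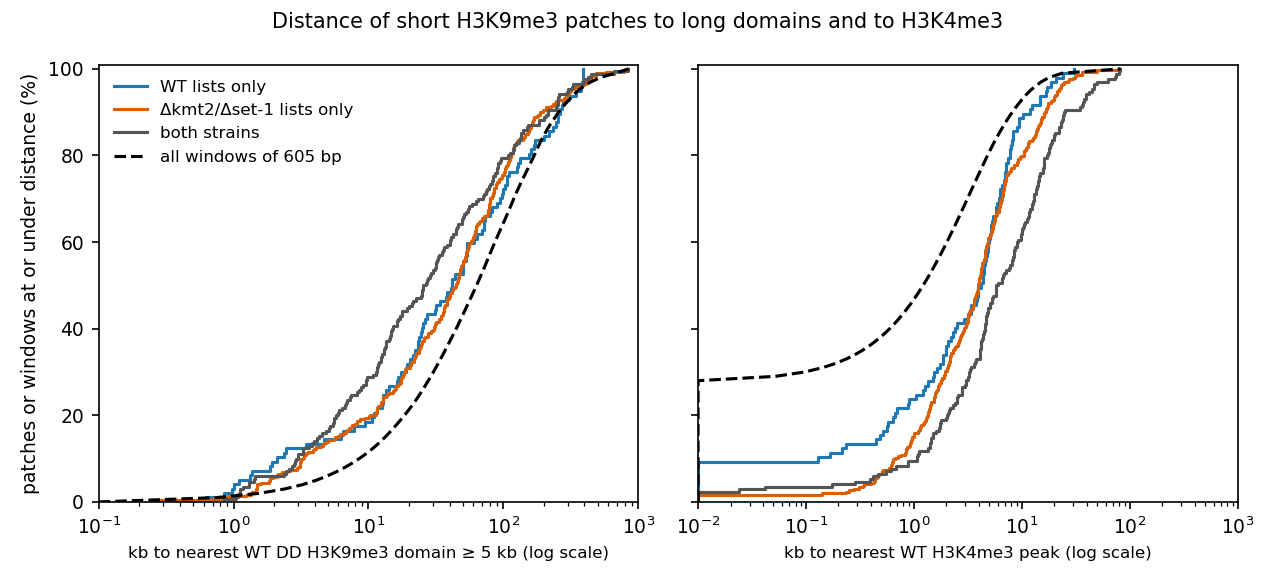
Share of patches, by class, and of all 605-bp windows (y axis, percent) at or under a distance to the nearest WT DD H3K9me3 domain of 5 kb or more (left) and to the nearest WT H3K4me3 peak (right), with distance in kb on log axes and overlaps drawn at the left edge. Patches lie left of the windows for domains (medians 37.97 and 63.3 kb) and right of them for H3K4me3 (medians 4.42 and 1.22 kb).

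Among the patches with H3K4me3 in all 4 lists, the strongest in H3K9me3 lay over 1 edge of NCU06598 on chromosome IV (1761158 to 1761915). Its H3K9me3 folds were 1.33 in WT DD, 1.35 in WT LP30, 1.32 in Δkmt2/Δset-1 DD and 1.28 in Δkmt2/Δset-1 LP30, and its H3K4me3 folds were 1.52 and 1.60 in WT and 1.54 and 1.47 in Δkmt1/Δdim-5. Every list of both marks thus had a peak that overlapped this 758-bp patch, with H3K9me3 peaks of 726, 733, 467 and 610 bp in the same order. A patch at cdp-2 on chromosome I (7373323 to 7373788), the gene of a chromodomain protein of the Neurospora HP1 and histone deacetylase complex, had H3K9me3 folds of 1.16, 1.17 and 1.16 in WT DD, WT LP30 and Δkmt2/Δset-1 DD and no peak in Δkmt2/Δset-1 LP30. Its H3K4me3 folds were 1.91 and 1.65 in WT and 1.63 and 1.68 in Δkmt1/Δdim-5. The other 2 that the naming rule chose were a WT DD patch (1.17) 3158 bp from NCU14131, annotated as non-coding RNA, on chromosome II, and a WT LP30 patch (1.12) within NCU02455 on chromosome VII. At cdp-2 and NCU06598, then, the patch was not confined to 1 strain.

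Patches held less gene sequence than the chromosomes as a whole and more than the long domains. A gene overlapped 290 patches (51.7%), against 80.5% of windows. Wholly within genes lay 143 patches (25.5%), for which no share of windows was computed. Genes took up 35.6% of patch bases and 57.0% of chromosome bases. In WT DD, bases in genes made up 26.3% of short peaks, 20.1% of peaks of 1 to 5 kb and 2.52% of peaks of 5 kb or more. The classes differed in the same measure, with 44.4% of bases in genes for patches in Δkmt2/Δset-1 lists only, 28.7% for lists of both strains and 23.2% for WT lists only. Wholly within genes were 97 of 294 patches in Δkmt2/Δset-1 lists only (33.0%, 27.9 to 38.6%), 31 of 170 in lists of both strains (18.2%, 13.2 to 24.7%) and 15 of 97 in WT lists only (15.5%, 9.60 to 24.0%). Longer peaks had the same order of strains. In Δkmt2/Δset-1 DD, genes made up 26.1% of the bases of peaks of 1 to 5 kb and 5.75% of those of 5 kb or more. The difference between classes is thus not particular to short patches, and it was not tested.

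Protein-coding genes were met by 274 of the 290 patches over a gene, and 9729 of the 10397 annotated genes are protein coding, a like share. Non-coding RNA genes were met by 10 patches, tRNA genes by 5 and rRNA genes by 3. One of these patches, at NCU14037 on chromosome I (7830435 to 7831235), was short in all 4 lists and was the single one of the 12 with both Δkmt2/Δset-1 folds, 1.20 in DD and 1.18 in LP30, above both WT folds, 1.13 and 1.14. The annotation gives gene spans without exons or strand, so exons, introns, untranslated regions and start sites could not be told apart.

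Patches were spread over all 7 chromosomes. The number was 122 on chromosome I, 62 on II, 79 on III, 75 on IV, 92 on V, 76 on VI and 55 on VII. Per Mb, the values ran from 12.5 on chromosome I (95% Poisson interval 10.3 to 14.9) to 18.0 on chromosome VI (14.2 to 22.6), a ratio of 1.45. Chromosome VI also had the most long domains per Mb, with 7.59 against 4.49 on chromosome I. The order was not the same throughout, since chromosome VII had 7.05 long domains and 12.9 patches per Mb. In every chromosome the class in Δkmt2/Δset-1 lists only was the largest, with 32 to 68 patches.

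**Figure D4:**
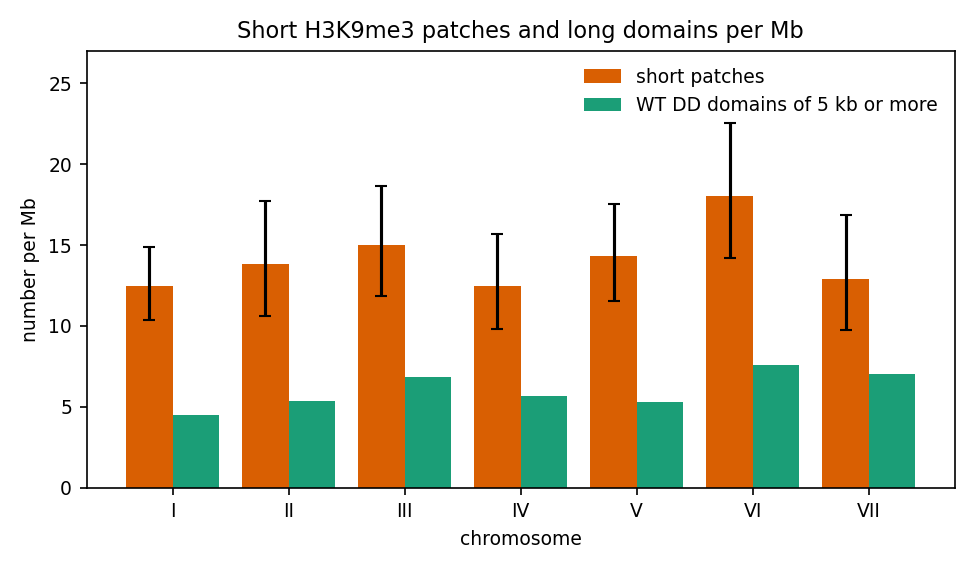
Short patches per Mb (orange, with 95% Poisson intervals as bars) and WT DD domains of 5 kb or more per Mb (green) on chromosomes I to VII. Chromosome VI has the most of both, 18.0 patches and 7.59 domains per Mb, and chromosome I the fewest domains, 4.49 per Mb.

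Along a chromosome, neighbouring patches lay a median of 24.6 kb apart. Of 554 neighbouring pairs, 140 (25.3%) were under 5 kb apart, and 322 patches (57.4%) had no other patch within 5 kb. Runs of 5 or more patches under 5 kb apart were found 5 times and held 28 patches. No background for the spacing was computed, so whether patches cluster was not tested.

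The longest run had 8 patches over 15.9 kb of chromosome I (8863405 to 8879324), from NCU02868 to NCU02862. Of these, 7 were in Δkmt2/Δset-1 lists only. WT DD had 1 peak of 428 bp and WT LP30 1 peak of 855 bp in this stretch, whereas Δkmt2/Δset-1 DD had 6 peaks over 4.45 kb and Δkmt2/Δset-1 LP30 7 peaks over 3.95 kb. In DD, no H3K4me3 peak was called here in WT or in Δkmt1/Δdim-5, although 8 genes are annotated in the stretch.

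A run of 5 patches on chromosome IV (583086 to 596311) had another form. All 5 were in lists of both strains. WT DD had 5 separate peaks over 3.45 kb, the longest of 977 bp, and Δkmt2/Δset-1 DD had 3 peaks over 9.89 kb, the longest of 8601 bp. Within the run, the separate WT patches thus overlapped broader peaks of the deletion strain. This form is partly built in. The rule dropped patches on long WT DD peaks but kept patches on long Δkmt2/Δset-1 peaks. The runs were also picked after their values were seen. The 8601-bp peak reached outside the run, from -4.348 to 4.253 kb relative to the run's start. Outside the run it also overlapped a WT DD peak of 1 kb or more (-3.414 to -2.289 kb). A run on chromosome VI (150102 to 160008) also had 5 WT DD peaks over 3.20 kb, the longest of 799 bp. Its 3 Δkmt2/Δset-1 DD peaks covered 7.60 kb of it, the longest of 6272 bp at full length. Another on chromosome VI (347753 to 359241) had 1 WT DD peak of 217 bp against 3 Δkmt2/Δset-1 DD peaks that covered 7.07 kb of it. The last run (3887999 to 3899610 on chromosome VI) went the other way in DD, with 3 WT peaks over 2.89 kb, the longest of 1696 bp, and 3 Δkmt2/Δset-1 peaks over 2.22 kb, the longest of 1579 bp. In LP30 this run had 0.603 kb in WT and 3.06 kb in Δkmt2/Δset-1.

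**Figure D5:**
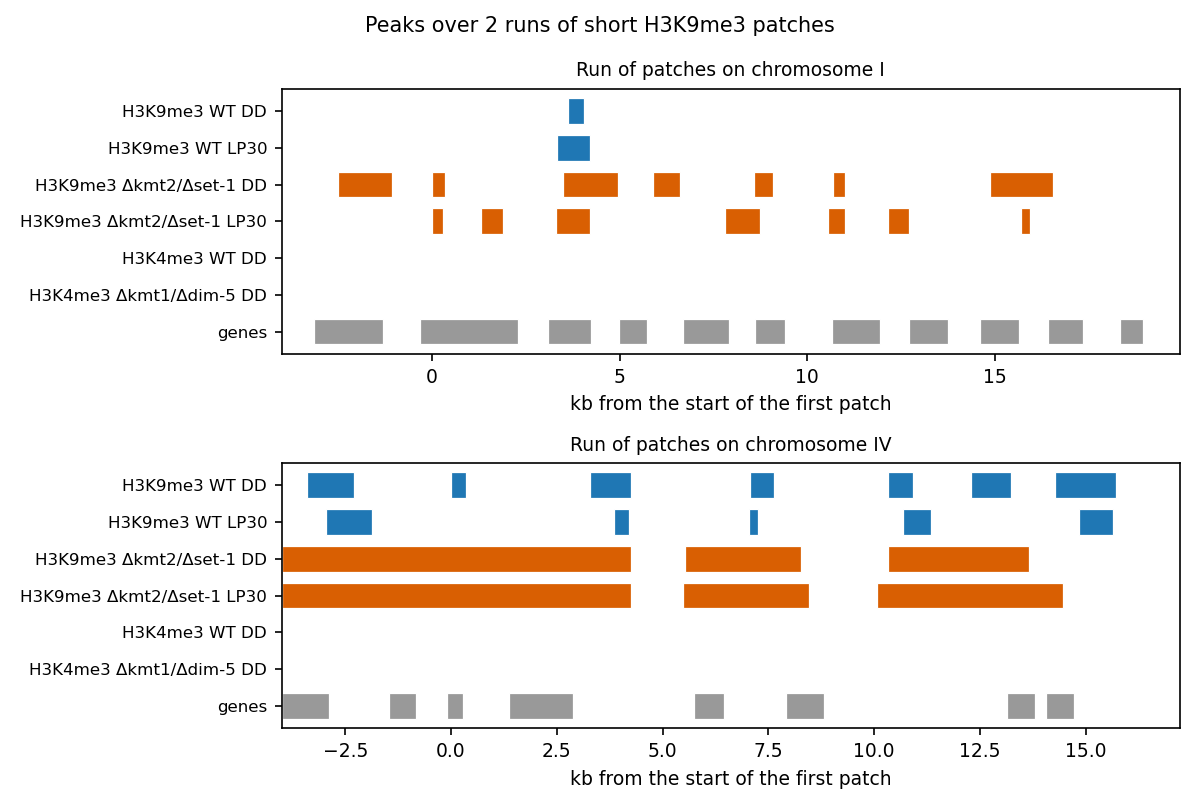
H3K9me3 peaks of the 4 lists, DD H3K4me3 peaks of WT and Δkmt1/Δdim-5 and annotated genes over the runs of 8 patches on chromosome I and 5 patches on chromosome IV, in kb from the start of the first patch (x axis). Each bar is 1 peak or gene. Within the chromosome IV run, the 5 WT DD peaks of up to 977 bp lie by 3 Δkmt2/Δset-1 DD peaks of up to 8601 bp. The longest of these reaches outside the run, where it also overlaps a WT DD peak of 1 kb or more. The H3K4me3 rows are empty in both runs.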

How the data were processed

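H3K9me3 and H3K4me3 ChIP-seq was done on 20 samples in 10 conditions with 2 replicates each. Per the labels, single-end sequencing with a read length of 50 bp aimed at 50 M reads for each sample. The lists give no read totals, so the depth behind a peak is unknown. The authors mapped reads to NC12 with BWA, called peaks with MACS2 (versions not given in the sources used here; broad peaks for H3K9me3, narrow for H3K4me3) at a permissive p-value cutoff and deposited 8 lists that pool replicates. The deposited score is 10 times a −log10 q-value or p-value. For broad peaks, the fold enrichment (a ratio of ChIP to control) and the −log10 q that the authors deposited are means over the peak. Their p-value column and the summit offset of narrow peaks were not used.

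Merging, overlaps, distances and background windows were computed with Python 3.11.15 and numpy 2.4.6, intervals with scipy 1.17.1 (Wilson for shares, Poisson for counts per Mb, order statistics for medians) and figures with matplotlib 3.10.9. Coordinates are 1-based. A chromosome's length was taken as the end of its last peak or annotated gene. Gene spans and names came from an NC12 RefSeq table with 10397 genes on the chromosomes. The methods were tested on simulated lists, where 241 of 241 planted patches and 154 of 154 planted recurrent patches were found. Presence in a list means any peak over at least 1 bp. Named are genes within 2 kb, or else the nearest gene, of the 6 patches with the highest short-peak fold in all 4 lists, in both WT lists only and in both Δkmt2/Δset-1 lists only, the 4 highest in 1 list, the 4 with H3K4me3 in all 4 lists and the highest H3K9me3 fold, and patches by genes that the study names. Other patches short in all 4 lists, runs, chromosome ends, low-fold peaks and the dim-5 and set-1 loci were named after their values were seen. The members and lists were chosen with earlier results of these data known. Alternatives were a q-value under 0.01, other length limits, other drop rules, other overlaps and other domain lengths.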

Additional observations from a re-analysis of the deposited data

How the results depend on the processing

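Of 43 alternative values, 20 stayed close to the first value and 23 moved. With H3K9me3 peaks of a q-value under 0.01 in every list, 47 patches were left, 38.3% in 2 or more lists, 7 in both WT lists only and 1 in both Δkmt2/Δset-1 lists only, which turns the order of these 2 counts. Their median distance to a long domain was 79.7 kb, now above that of the windows (65.3 kb, computed after seeing the data), and 6.38% overlapped WT H3K4me3. With short peaks under 500 bp there were 287 patches, 13 in both WT lists only and 60 in both Δkmt2/Δset-1 lists only. Without patches on a peak of 1 kb or more in any list, 357 patches were left, 32.2% in 2 or more lists, 53 in both Δkmt2/Δset-1 lists only, at a median distance of 48.0 kb. Without patches within 2 kb of a WT DD peak of 1 kb or more the distance was 46.2 kb. The share in 2 or more lists was 48.8% when at least 50% of the patch had to be covered and 29.9% when only peaks under 1 kb counted, with 51 and 55 patches in both WT and both Δkmt2/Δset-1 lists only, an alternative chosen after seeing the data. The median distance was 60.9 kb to domains of 10 kb or more, 15.4 kb to those of 1 kb or more and 46.2 kb to WT LP30 domains of 5 kb or more. The overlap with WT H3K4me3 was 1.78% with at least 50% of the patch covered and 8.02% within 500 bp. The cause of these moves was not tested. The ratio between chromosomes stayed at 1.30 to 1.68.

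No paired analysis was possible because the lists pool the replicates that share a number, and leaving out a replicate was not possible for the same reason. The depth of the lists is unknown, all H3K9me3 lists share 1 control, and absence from a list cannot be told apart from a signal just under the calling threshold.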
